A study of Mus musculus with 20 samples.

Results

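Sense-intronic genes are noncoding transcripts annotated inside an intron of a longer gene, on that gene's own strand. Their members were the rows of the normalized gene count table whose GENCODE M21 gene type is sense_intronic, and 114 of the 14456 listed genes were of this type. GENCODE M21 holds 327 such genes in all, of which 213 were not among the rows analysed here. A listed protein-coding gene spanned 109 of the 114 members on the same strand, and these 88 distinct protein-coding genes are called hosts below. The rule used no measured value other than that a gene is listed. The lowest median of a listed gene over the libraries was 11 reads, so weaker genes are not among the members. Earlier results of these data were known when the members were chosen.

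When RNA polymerase transcribes a host, the intron is made as part of the pre-mRNA, cut out by the spliceosome as a lariat, opened by the debranching enzyme and degraded in the nucleus. Reads from an intron in a total RNA library therefore come from pre-mRNA, from excised introns that persist, or from a transcript that starts inside the intron. A stranded library tells a sense-intronic gene from an antisense one, but reads of unspliced host RNA within the interval of a sense-intronic gene and reads of that gene's own transcript cannot be told apart in a gene count.

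The libraries were stranded total RNA libraries, depleted of ribosomal cDNA, of bone marrow-derived macrophages (BMDM) grown with M-CSF from male C57BL/6J mice aged 8 to 12 weeks. The high glucose group (n = 4) had 25 mM glucose for 24 h, and the normal glucose group (n = 4) had 5.5 mM glucose with 19.5 mM mannitol as the osmotic control. Naive BMDM were exposed for 24 h to PBS, or to 2000000000 particles per ml of exosomes from BMDM kept in normal glucose (BMDM–NG-exo) or in high glucose (BMDM–HG-exo), with n = 4 for each. The study asked how glucose acts on macrophages and how the exosomes they release act on other macrophages. The labels do not say whether the libraries of a glucose group came from separate animals, so p-values measure only the spread between these libraries.

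Each library held between 34016445 and 56310712 reads in the 14456 listed genes, and reads outside these genes are not counted here. Of the reads in listed genes, between 5827 and 12031 fell in the 114 members, or 0.0166% to 0.0267%. All 7 macrophage markers examined were listed (Csf1r, Adgre1, Cd68, Itgam, Lyz2, Mertk and Fcgr1). Of 35 markers of other cell types 10 were listed, and no T cell, dendritic cell, erythroid or mast cell marker was. In bulk samples, fewer cells of a type and less RNA per cell cannot be told apart.

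The members differed in how their annotated transcripts end, and the last 50 bases are shown for 7 of them because they were the most abundant members or carried the values described further on. Most polyadenylated transcripts hold the hexamer AATAAA or its variant ATTAAA shortly before their end. The hexamer is in capitals where it occurs, and the sequences, read 5′ to 3′ on the transcript's strand, are those of the longest GENCODE M21 transcript (GRCm38).
Peg13 (chr15:72805600-72805649, minus strand): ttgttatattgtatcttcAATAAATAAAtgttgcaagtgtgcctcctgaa
Gm15513 (chr5:34211810-34211859, minus strand): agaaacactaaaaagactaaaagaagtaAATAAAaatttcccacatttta
Gm3513 (chr3:79551314-79551363, minus strand): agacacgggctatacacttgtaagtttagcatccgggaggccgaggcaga
Gm10484 (chr5:5170394-5170443, minus strand): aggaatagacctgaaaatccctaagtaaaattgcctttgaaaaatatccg
Gm43696 (chr3:104470660-104470709, minus strand): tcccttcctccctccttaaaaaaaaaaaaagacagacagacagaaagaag
Gm16310 (chr16:92096441-92096490, plus strand): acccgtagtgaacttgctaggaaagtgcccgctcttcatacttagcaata
Gm43920 (chr6:83964999-83965048, plus strand): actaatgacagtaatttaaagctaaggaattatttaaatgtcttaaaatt

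Both Peg13 and Gm15513 hold AATAAA, and the other 5 hold neither hexamer. Over all members, 28 of 114 (24.6%) held AATAAA or ATTAAA in the last 50 bases, searched on the transcript strand only. The share was 26.8% for the 765 listed TEC genes, which are unclassified transcripts that GENCODE sets aside for further experiments, 46.2% for 429 antisense genes, 52.9% for 348 lincRNA genes and 78.6% for 11571 protein-coding genes. In the 50 bases before that window the shares lay between 4.90% and 7.13% for the 5 types. A match describes the annotated end and is no measurement of polyadenylation.

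The listed members were longer than those not listed. Their annotated exons covered a median of 1732 bases (176 to 6071), against 808 bases for the 213 others, and 64 of the 114 (56.1%) had a single exon, against 85 (39.9%). A listed host held 95.6% of the listed members and 57.3% of the others. Read counts grow with exon length, and listed genes had a median of at least 11 reads, so the listing itself favours longer genes. The part of the listing in these differences was not tested. Chromosome 3 carried 32 of the listed members, chromosome 5 carried 21 and chromosome 1 carried 14, and the annotation itself places 66, 39 and 31 of its 327 there. An intron of an annotated host transcript enclosed 106 members, and in 41 cases it was the first intron. The median length of these introns was 17625 bases, with a range of 1227 to 131646. The span of Gm29170 touched an exon of Gm25663 and that of Gm44836 an exon of Cebpg, each on the same strand, so that reads of these members may belong to either gene.

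The members were present at low levels. The mean normalized count over the 20 libraries ran from 11.2 to 1145 (median 48.7), and 22 members reached 100 while 59 stayed under 50. Per kilobase of exon, the median level was 32.2 for the members, 25.8 for TEC, 29.2 for antisense, 26.7 for lincRNA and 202 for protein-coding genes. The median member thus stood at 15.9% of the median protein-coding gene per kilobase. Genes too weak to be listed are absent from these medians, which hold for listed genes only.

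Most members were far below the gene that holds them. Per kilobase of exon, the median member had 10.5% of the level of its host (0.635% to 333%). Under 10% of the host were 51 members, between 10% and 50% were 46, and between 50% and 100% were 7. Across the 109 pairs, the log2 level per kilobase of member and host had a Pearson correlation of 0.39 (Spearman 0.39), which is a description across genes of the same 20 libraries. The share of the host and the correlation hold for listed members only, since weaker ones are absent.

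**Figure D1:**
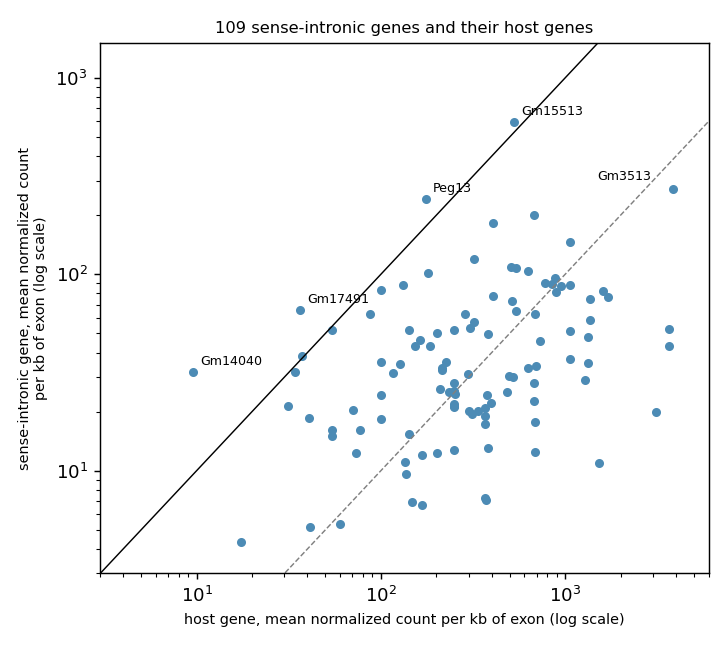
Mean normalized count per kilobase of exon of 109 sense-intronic genes (vertical axis) against that of the host protein-coding gene (horizontal axis), both on log scales, with 1 point for each sense-intronic gene. The solid line marks equal levels and the dashed line 10% of the host, and 5 points lie above the solid line.

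The 5 members above their host were Gm14040 (333% of the host per kilobase), Gm17491 (181%), Peg13 (138%), Gm15513 (113%) and Gm20705 (103%). Of these, Gm14040 was low itself, at 31.8 per kilobase, in the still lower gene F830045P16Rik, at 9.56. Peg13 is a paternally expressed imprinted RNA in an intron of Trappc9, a subunit of the TRAPPII trafficking complex, and lies at chr15:72805600-72810324. Gm15513 lies at chr5:34211810-34213802 in an intron of Zfyve28, a negative regulator of EGF receptor signalling. With 597 per kilobase Gm15513 was the most abundant member by this measure, and Peg13, at 242, was the third.

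Peg13 and Gm15513 together made up 19.2% to 29.8% of the summed level of all members in a library, and neither was called in any comparison. The normalized count of Peg13 was between 1087 and 1260.1 in PBS, between 989 and 1282 in BMDM–NG-exo and between 1011 and 1125 in BMDM–HG-exo. In the glucose experiment it lay between 1107 and 1227 in normal and between 1108 and 1329 in high glucose. The 5 groups overlapped, with a log2 fold change of 0.04 (SE 0.07, adjusted p = 0.768, limma) for high against normal glucose and −0.09 (SE 0.07, adjusted p = 0.683, limma) for BMDM–HG-exo against the controls. Gm15513 overlapped likewise, at 894 to 1046 in PBS, 844 to 933 in BMDM–NG-exo, 770.0 to 969 in BMDM–HG-exo, 861 to 999.8 in normal and 851 to 1097 in high glucose. Its log2 fold changes in the same comparisons were 0.08 (SE 0.08) and −0.13 (SE 0.07, adjusted p = 0.546), and neither was called. Zfyve28, its host, rose by 0.18 in high glucose (adjusted p = 0.0130).

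The other 8 of the 10 most abundant members per kilobase lay below their hosts. Gm3513, in an intron of Fnip2, a folliculin-interacting protein, had 272 per kilobase, which was 7.02% of the 3869 per kilobase of Fnip2. Gm13840 had 201 in the focal adhesion gene Pxn, Gm44836 183 in Cebpg, Gm43328 146 in the small GTPase gene Rap1a, and Gm15472 120.3 in the phosphatase gene Ptpn22. Gm45309 had 109 in Hps5, Gm37963 107 in the deubiquitinase gene Usp4 and Gm44258 104 in the receptor phosphatase gene Ptpro.

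Hosts that hold several members show how far the level varies along 1 gene. In 10 hosts there were at least 2 members, 31 in all. Cdk14, which encodes a cyclin-dependent kinase that acts with cyclin Y in Wnt signalling, held 7 members over a span of 617 kb (chr5:4803391-5420312, minus strand). Taken from the start of Cdk14, their levels per kilobase were 25.1 for Gm43728, 25.5 for Gm43727, 28.1 for Gm10484, 12.8 for Gm43577, 51.9 for Gm43111, 21.1 for Gm43113 and 21.4 for Gm43112. The highest lay 89.2% of the way along the gene, and the levels had no steady fall from its start.

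Members of 1 host were closest together in Wars2, at 15.0 and 16.1 per kilobase, and farthest apart, as a ratio of the highest to the lowest, in Snx27. Rap1a held 4 members between 37.1 and 146 per kilobase, and Man1a2, an alpha-mannosidase gene, held 4 between 7.25 and 20.8. Snx27, which encodes a sorting nexin, held 3 between 12.5 and 62.6. Lrig2, which encodes a leucine-rich repeat membrane protein, also held 3, between 18.3 and 35.6. Capza1, Hipk1, Ptpn22 and Wars2 were among those that held 2. The member nearest the start was the highest in 4 of the 10 hosts.

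**Figure D2:**
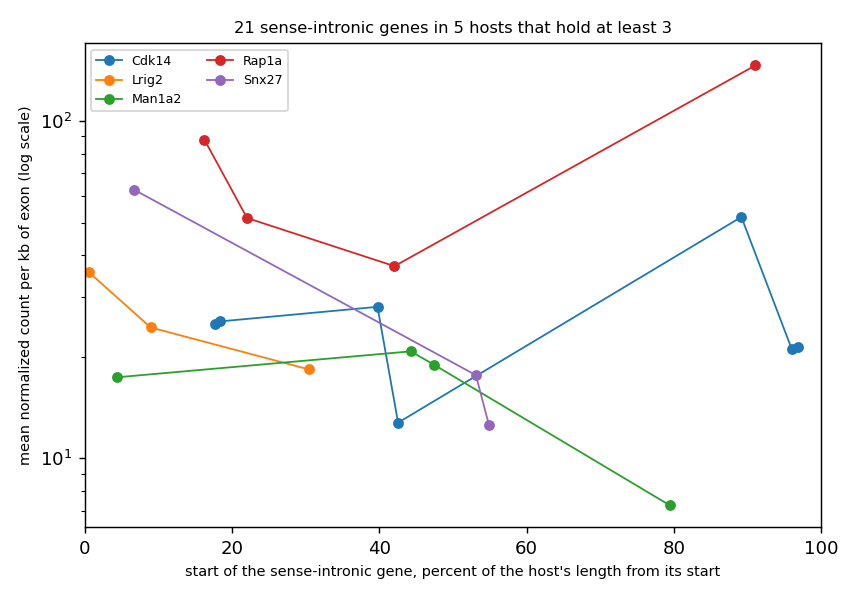
Mean normalized count per kilobase of exon (log scale) of the 21 sense-intronic genes in hosts with at least 3, against the place of their start along the host, in percent of the host's length from its own start, with 1 coloured line for each of 5 hosts. In Cdk14 the highest of 7 points, at 51.9 per kilobase, lies 89.2% along the gene.

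The summed level of the members differed more between the 2 experiments than within them. Without Peg13 and Gm15513, the normalized counts of the other 112 members added up to 5225, 6165, 6445 and 5699 in PBS replicates 1 to 4, to 5217, 5519, 6597 and 5610.1 in BMDM–NG-exo, and to 6370.1, 6119, 6876 and 6993 in BMDM–HG-exo. The sums in the glucose experiment were 7771, 8572, 7669 and 8077 in the normal glucose libraries 1, 3, 5 and 6, and 7495, 7414, 7118 and 7477 in the high glucose libraries 1, 2, 4 and 6. Each glucose library thus lay above each exosome library, and the 2 experiments differ in more than 1 respect, whose parts cannot be told apart.

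Within the exosome experiment the mean sum was 5884 ± 536 (SD, n = 4) in PBS, 5736 ± 598 in BMDM–NG-exo and 6589 ± 414 in BMDM–HG-exo. Replicates with the same number carry the same date in their labels, and the BMDM–HG-exo library was the highest of its date at 3 of the 4 dates and below PBS at the other. In the glucose experiment the mean was 8022 ± 405 in normal and 7376 ± 175 in high glucose, with no overlap. The summed level of the hosts lay between 292096 and 296943 in PBS, between 294692 and 303547 in BMDM–NG-exo and between 299179 and 303368 in BMDM–HG-exo, the last above PBS without overlap. It lay between 288175 and 293629 in normal and between 295160 and 300753 in high glucose, also without overlap and opposite in direction to the sum of the members. A sum is weighted to abundant hosts such as Fnip2, which rose in BMDM–HG-exo against PBS, as described further on. Fnip2 was not among the hosts called in high against normal glucose. The median log2 fold change of the hosts was 0.01 for BMDM–HG-exo against PBS and 0.02 for high against normal glucose. The summed TEC level lay between 59017 and 80218 in the exosome libraries and between 82199 and 94099 in the glucose libraries.

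**Figure D3:**
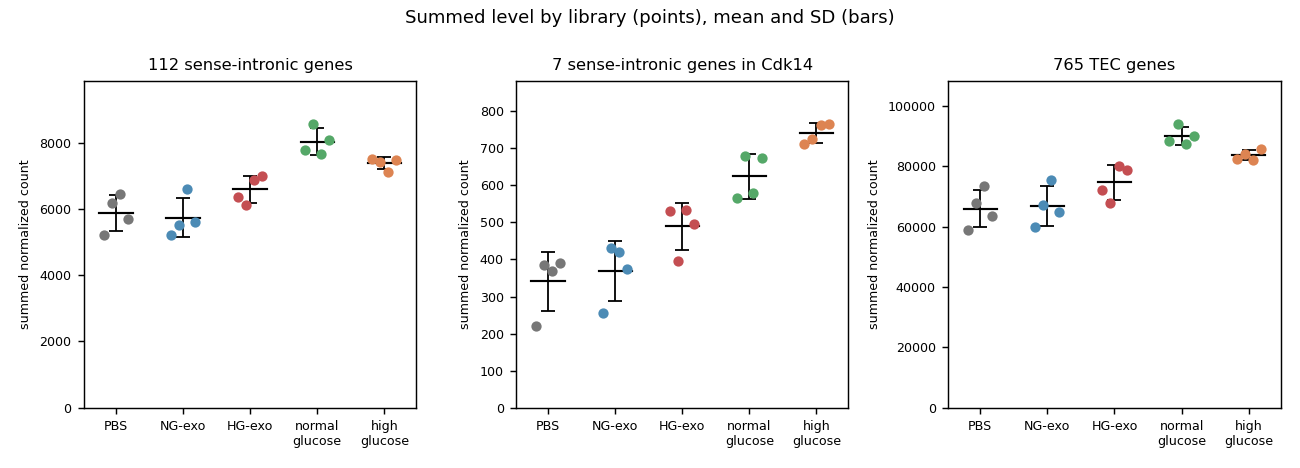
Summed normalized count by library (points) in 5 groups of 4 libraries, with the mean and SD of each group (bars), for 112 sense-intronic genes without Peg13 and Gm15513, for the 7 of them in Cdk14 and for 765 TEC genes. The 8 glucose libraries lie above the 12 exosome libraries in all 3 panels, and only for the genes in Cdk14 does high glucose lie above normal glucose.

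High glucose was compared with normal glucose to ask whether intronic RNA moved with the macrophage's response to glucose. No member passed the test. The median member stood at a log2 fold change of −0.15, with 43 higher and 70 lower of the 113 tested, and the median over all 14425 genes tested was −0.0031. Protein-coding genes had a median of 0.01, TEC genes −0.13, lincRNA genes −0.16 and antisense genes −0.09.

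The limma test, at an adjusted p-value under 0.05, called 13.3% of all genes in this comparison and 0 of the 113 members. At an unadjusted p-value under 0.05 there were 9 members, 2 higher and 7 lower in high glucose, against 25.4% of all genes. The groups did not overlap for 9 members, against 16.3% of all genes. The edgeR test called 0 members and DESeq2 called 1, Gm43920, beside 14.9% of all genes. The median standard error of the log2 fold change was 0.30 for the members, 0.10 for all genes and 0.08 for protein-coding genes, so a change had to be larger in a typical member than in a typical protein-coding gene to be detectable.

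The median was lower among weak members. The 50 members with a mean under 50 had a median log2 fold change of −0.27 and the 63 above it −0.06. Protein-coding genes with a mean under 50 had a median of −0.13, against 0.01 above it. The summed level of the 7 macrophage markers lay between 798427 and 868348 in high and between 620993 and 695733 in normal glucose, without overlap. The listed megakaryocyte markers (2 of 3) summed to between 595 and 872 in normal and between 290.5 and 463 in high glucose, and the listed endothelial markers (2 of 3) to between 289.6 and 327 in normal and between 329 and 456 in high glucose. The part of these differences in the members' values was not tested.

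The smallest adjusted p-values belonged to Gm43920 and Gm48086, which were chosen for description after their values were seen. Gm43920 lies in an intron of Zfp638, which encodes a zinc finger protein, at chr6:83962277-83965048. Its normalized count was 38.1, 92.8, 52.8 and 78.7 in normal and 38.3, 29.7, 30.7 and 39.2 in high glucose. Values in high glucose were near the lowest in normal glucose, with a log2 fold change of −0.84 (SE 0.31, adjusted p = 0.0689, limma), while Zfp638 stood at −0.0038 (adjusted p = 0.973). Gm48086, in an intron of Eif4ebp2, a repressor of cap-dependent translation, stood at −0.42 (SE 0.16, adjusted p = 0.0875). Eif4ebp2 itself fell by 0.13 (adjusted p = 0.0463).

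Of members with a mean of 50 or more whose groups did not overlap, 3 were higher in high glucose (Gm16310, Gm43112 and Gm43727) and 1 was lower (Gm29055), and none of them passed the test. Gm16310 lies at chr16:92094568-92096490 in the first intron of Mrps6, which encodes a protein of the small mitochondrial ribosomal subunit. Its normalized count was 54.8, 48.0, 32.1 and 39.4 in normal and 72.9, 66.7, 56.6 and 78.3 in high glucose. All high glucose libraries lay above all normal glucose libraries, and the log2 fold change was 0.66 (SE 0.28, adjusted p = 0.114, limma).

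Here the host itself changed. Mrps6 rose by 0.96 (SE 0.11, adjusted p = 2.71e-08, limma), from 265 to 354 in normal to between 529.9 and 653 in high glucose. Slc5a3, the sodium-coupled myo-inositol transporter that responds to tonicity, begins close to the start of Mrps6 (chr16:92058322-92087473, plus strand), and Gm16310 begins 7095 bases past its end. Slc5a3 had normalized counts of 1114 to 1388 in normal glucose, and all high glucose libraries were higher, at 3124 to 4583. Reads that continue past the end of Slc5a3 and a separate Gm16310 transcript were not told apart here.

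Gm43112 and Gm43727 both lie in Cdk14, with log2 fold changes of 0.48 (SE 0.23, adjusted p = 0.177) and 0.29 (SE 0.21, adjusted p = 0.437). Gm29055, in an intron of the exoribonuclease gene Dis3l2, had −0.44 (SE 0.25, adjusted p = 0.270), and Dis3l2 fell by 0.24 (adjusted p = 0.00950).

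The changes of the members were set beside those of their hosts. Of 87 hosts tested 13 were called (13.3% of all genes were), 8 higher and 5 lower in high glucose, and 9 of the 15 members within called hosts had the sign of the host. Over all 108 pairs tested 57 had the same sign, and the log2 fold changes had a Pearson correlation of 0.25 (Spearman 0.20). The log2 fold change of a host had a median size of 0.08 and that of a member 0.26, and the median standard error was 0.05 and 0.30. A typical host change was thus small beside the error of a member, so the signs cannot show whether members followed their hosts.

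The ratio of a member to its host asks whether intronic RNA moved apart from the mRNA. It was fitted over all 1162 nested genes tested of any type, and 0.258% of them were called (3 protein-coding genes within other genes). None of the 108 members was called, 7 had an unadjusted p-value under 0.05 (9.04% of all nested genes did), and the smallest adjusted p was 0.356, for Gm43920. The median log2 difference of the ratio was −0.13 for members, −0.16 for TEC genes and −0.12 for all nested genes.

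**Figure D4:**
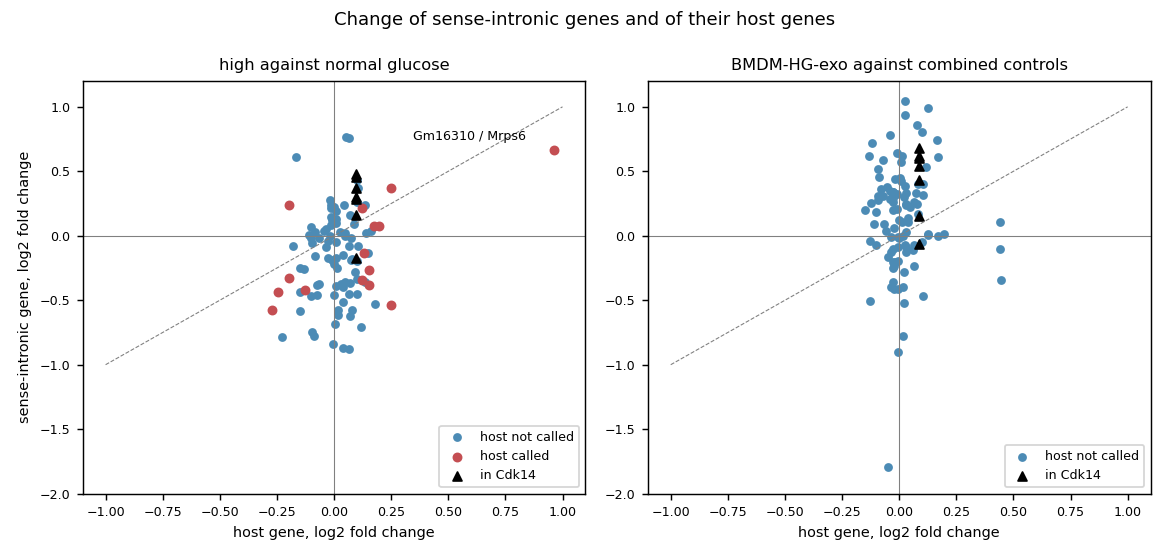
Log2 fold change of each sense-intronic gene (vertical axis) against that of its host (horizontal axis) for 108 pairs in high against normal glucose and in BMDM–HG-exo against the combined controls, with the dashed line at equal change. Red points have a called host, of which there are 15 for glucose and 0 for the exosomes, and triangles mark the 7 genes in Cdk14, of which 6 are above 0 in each panel.

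BMDM–HG-exo were compared with the combined PBS and BMDM–NG-exo controls, as in the study. Here the members leaned upward, and no member passed the test. The median log2 fold change was 0.20, with 75 higher and 38 lower of 113. TEC genes had the same median, 0.20, and 557 of 761 of them were higher. The median was −0.01 for protein-coding genes, 0.0021 for antisense genes, 0.01 for lincRNA genes and 0.00031 for all 14413 genes.

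The exosome experiment had the study's fold limit as well: a called gene also had to differ by 0.15 or more on the log2 scale. In this comparison 0.201% of all genes and 0 members were called, and edgeR and DESeq2 also called 0 members. At an unadjusted p-value under 0.05 there were 14 members, 12 higher and 2 lower, against 10.5% of all genes. The groups did not overlap for 2 members, against 1.17% of all genes. The upward median was not limited to weak members, at 0.20 for the 66 with a mean under 50 and 0.20 for the 47 above it, while protein-coding genes had 0.01 and −0.01.

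The 2 members without overlap were Gm10484 and Gm43696. Gm10484 lies in an intron of Cdk14 (chr5:5170394-5175152), and its normalized count was 74.7, 95.3, 111 and 107 in PBS, 70.9, 103, 93.0 and 83.4 in BMDM–NG-exo, and 141, 120.4, 144 and 127 in BMDM–HG-exo. Each BMDM–HG-exo library lay above all 8 controls. The log2 fold change was 0.54 (SE 0.17, adjusted p = 0.211, limma), while Cdk14 itself stood at 0.09 (SE 0.04, adjusted p = 0.490).

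Gm43696, the longest listed member, lies in an intron of Lrig2 (chr3:104470660-104476730). Its normalized count was 50.7, 86.4, 100.1 and 71.5 in PBS, 76.5, 89.4, 90.4 and 87.7 in BMDM–NG-exo, and 104, 136, 101.1 and 123 in BMDM–HG-exo. The lowest BMDM–HG-exo library was close to the highest PBS library. The log2 fold change was 0.52 (SE 0.20, adjusted p = 0.315, limma), and Lrig2 stood at −0.09 (SE 0.07, adjusted p = 0.669).

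The members in Cdk14 leaned the same way as a group. In BMDM–HG-exo 6 of the 7 were higher (median 0.54, against 0.19 for the 106 members elsewhere), and in high glucose 6 of 7 were higher (median 0.30, against −0.17 elsewhere). They lie within 1 gene and may share 1 pre-mRNA, so they cannot be taken as independent. In BMDM–HG-exo the signs were not particular to Cdk14, since 4 of 4 members in Rap1a (median 0.28), 3 of 3 in Lrig2 (median 0.31) and 3 of 3 in Snx27 (median 0.01) were higher as well. The summed normalized count of the 7 members in Cdk14 was 222, 384, 369 and 389 in PBS, 254, 429.8, 419 and 375 in BMDM–NG-exo, and 530.3, 397, 532 and 497 in BMDM–HG-exo. The glucose libraries had 565, 679.6, 579.6 and 673 (normal) and 712, 723, 762 and 766 (high). BMDM–HG-exo overlapped the controls in replicate 2 only, and high glucose lay above normal glucose in all libraries. The members in Cdk14 were grouped after their values were seen, and the sum has no test.

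No host was called in this comparison, and 60 of 108 pairs of member and host had the same sign (Pearson correlation of the log2 fold changes 0.03). In the ratio of member to host, fitted over 1154 nested genes, 0% of all nested genes and 0 of 108 members were called. Before adjustment 12 members had a p-value under 0.05, against 9.45% of all nested genes, and the smallest adjusted p was 0.413, for Gm43696. The median log2 difference was 0.18 for members, 0.21 for TEC genes and 0.18 for all nested genes.

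The 2 controls were then separated in a fit of all 3 groups. The 3 comparisons share libraries, so their values are given side by side and not set against each other. For BMDM–HG-exo against BMDM–NG-exo 0.0139% of all genes and 0 members were called, with 12 members at an unadjusted p-value under 0.05 (6.54% of all genes) and 0 called by edgeR and by DESeq2. Against PBS, BMDM–HG-exo had 4.84% of all genes called and 1 of 113 members, Gm3513, with 13 members at an unadjusted p-value under 0.05 (16.9% of all genes). For BMDM–NG-exo against PBS 3% of all genes and 0 members were called, with 6 members at an unadjusted p-value under 0.05 (13.5% of all genes) and 0 called by edgeR and by DESeq2. The 7 macrophage markers summed to between 785780 and 831767 in PBS, above BMDM–NG-exo (710680 to 766373) and BMDM–HG-exo (727963 to 751990). The listed megakaryocyte markers (2 of 3, Itga2b and Pf4) summed to between 447 and 503 in PBS and between 350 and 438 in BMDM–HG-exo. Those of BMDM–NG-exo (328 to 521) overlapped both. The part of these marker differences in the members' values was not tested.

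Gm3513 lies in the first of 17 introns of Fnip2 (chr3:79551314-79552193, minus strand). The 200 bases around its only splice junction are printed because reads across it would not come from unspliced Fnip2 RNA. The junction lies at the middle of the capitals, which mark the last 10 bases of exon 1 (chr3:79551923-79552193) and the first 10 of exon 2 (chr3:79551314-79551679).
Gm3513 junction: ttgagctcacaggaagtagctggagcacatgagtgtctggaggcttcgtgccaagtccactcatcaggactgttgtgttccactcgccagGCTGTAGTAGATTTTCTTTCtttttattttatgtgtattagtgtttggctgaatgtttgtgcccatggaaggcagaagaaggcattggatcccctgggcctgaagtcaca
The files give 1 count for both exons, so junction reads were not analysed here.

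The normalized count of Gm3513 was 119.0, 118.5, 145 and 90.3 in PBS, 94.1, 116, 197 and 141 in BMDM–NG-exo, and 187, 197, 186 and 192 in BMDM–HG-exo. The 4 BMDM–HG-exo libraries were close together and above all PBS libraries, and they overlapped BMDM–NG-exo in replicate 3. In the glucose experiment the count was between 201 and 219 in normal and between 178 and 232 in high glucose, and the groups overlapped.

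Against PBS, Gm3513 rose by 0.70 in BMDM–HG-exo (SE 0.20, adjusted p = 0.0293, limma; edgeR adjusted p = 0.0311). The log2 fold change was 0.61 against the combined controls (SE 0.18, adjusted p = 0.129, limma), 0.52 against BMDM–NG-exo (SE 0.20, adjusted p = 0.630) and 0.18 for BMDM–NG-exo against PBS (SE 0.20, adjusted p = 0.785). The call against PBS was lost when any 1 of PBS replicates 1, 2 and 4 or any 1 of the 4 BMDM–HG-exo libraries was left out, with adjusted p-values of 0.0558 to 0.126 and log2 fold changes of 0.58 to 0.71.

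Fnip2 rose with both kinds of exosomes. Its normalized count was between 29305 and 30790.2 in PBS, between 34144 and 36181 in BMDM–NG-exo and between 34519 and 39186 in BMDM–HG-exo. Against PBS the log2 fold change was 0.28 for BMDM–HG-exo (SE 0.03, adjusted p = 2.69e-07) and 0.21 for BMDM–NG-exo (SE 0.03, adjusted p = 4.22e-05, limma). The ratio of Gm3513 to Fnip2 stood at 0.44 against the combined controls (SE 0.19, adjusted p = 0.433) and was not called.

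With the date as a block in the fit, 2 members were called in BMDM–HG-exo against PBS, beside 5.62% of all genes, and 1 in BMDM–NG-exo against PBS, beside 3.5% of all genes. These shares of members are below those of all genes. In BMDM–HG-exo against PBS without the block, edgeR called 4.79% of all genes and DESeq2 5.76%. With the block, Gm3513 kept its call in BMDM–HG-exo against PBS (adjusted p = 0.0207, limma), and Gm19967 joined it. Gm19967 lies in an intron of Rabep1, which encodes an effector of the GTPase Rab5. The normalized count of Gm19967 was 29.1, 48.7, 30.5 and 27.8 in PBS, 29.5, 42.4, 95.5 and 41.7 in BMDM–NG-exo, and 49.3, 55.1, 86.4 and 102 in BMDM–HG-exo. All BMDM–HG-exo libraries lay above all PBS libraries, and BMDM–NG-exo overlapped both. Without the block the log2 fold change was 1.05 (SE 0.34, adjusted p = 0.0670), with it the adjusted p was 0.0486, and DESeq2 gave 0.0408.

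Gm16310 was the member called under the block in BMDM–NG-exo against PBS. Its normalized count was 62.1, 49.9, 62.3 and 72.4 in PBS, 38.3, 28.9, 34.6 and 11.8 in BMDM–NG-exo, and 87.6, 53.3, 50.1 and 26.6 in BMDM–HG-exo. BMDM–NG-exo lay below PBS in all libraries, and BMDM–HG-exo overlapped both. The log2 fold change was −1.20 (SE 0.37), with an adjusted p of 0.0649 without and 0.0379 with the block, and Mrps6 stood at −0.02 (SE 0.12).

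**Figure D5:**
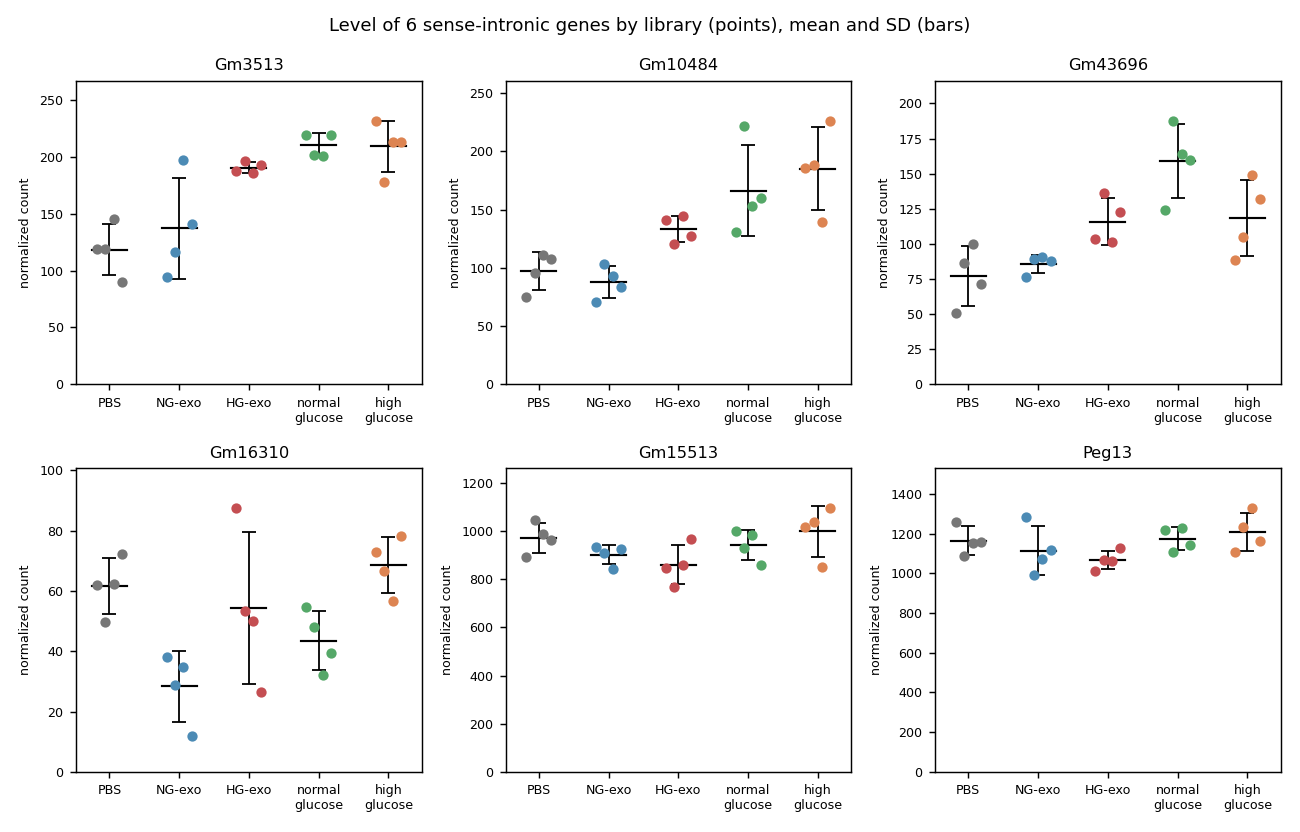
Normalized count by library (points) of 6 sense-intronic genes in 5 groups of 4 libraries, with the mean and SD of each group (bars) and vertical axes that start at 0. The 4 BMDM–HG-exo libraries of Gm3513 lie between 186 and 197, above the PBS libraries (90.3 to 145), while the 5 groups of Peg13 and of Gm15513 overlap.

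RNAs that stay in the nucleus did not move as 1 group. Of 9 nuclear noncoding RNAs in a list chosen with earlier results of these data known, 8 were tested. In high glucose 2 were called higher and 2 lower, where 13.3% of all genes were called. In high glucose Malat1, which collects in nuclear speckles, rose by 0.22 (578613 to 639860 in normal and 687452 to 734374 in high glucose, adjusted p = 8.98e-05), and Rn7sk, which holds the elongation factor P-TEFb inactive, rose by 0.20. Neat1, the scaffold of paraspeckles, fell by 0.23 (adjusted p = 0.00300), and the nuclear RNA Firre fell by 0.40. The list's median was 0.05.

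In BMDM–HG-exo against the combined controls 1 of the 8 was called, where 0.201% of all genes were. Because the list was chosen with earlier results known, its share cannot be read against that of all genes. Kcnq1ot1, a long unspliced imprinted RNA that lies antisense in Kcnq1, rose by 0.42 (SE 0.09, adjusted p = 0.0392, limma). Its normalized count was 2225, 2834, 3095 and 2512 in PBS, 2771, 3136, 3799.5 and 2906 in BMDM–NG-exo, and 3832, 3298, 4170.3 and 4162 in BMDM–HG-exo. The BMDM–HG-exo libraries lay above all controls, except that replicate 2 was below BMDM–NG-exo replicate 3. In high against normal glucose it stood at 0.01 (adjusted p = 0.927).

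In high glucose, genes that splice introns or degrade them were called about as often as all genes. Of 30 genes of the major spliceosome, 4 rose in high glucose (Snrpb by 0.30, Cdc5l by 0.17, Sf3b3 by 0.17 and Sf3b2 by 0.11) and 0 fell, where 13.3% of all genes were called. None was called in BMDM–HG-exo against the combined controls, where 0.201% of all genes were. Against PBS alone, Snrnp70, a protein of the U1 particle, fell by 0.21 (adjusted p = 0.00214). Of 21 genes of nuclear RNA decay and debranching tested, 3 rose in high glucose and 0 fell: the cap-binding genes Ncbp1 and Ncbp2, by 0.22 and 0.21, and the lariat debranching enzyme gene Dbr1, by 0.39 (SE 0.12, adjusted p = 0.0247). None was called with exosomes. The list medians were 0.08 and 0.05 in high glucose and −0.0084 and −0.02 in BMDM–HG-exo, beside the medians over all genes given above.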

How the data were processed

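Normalized gene counts of 20 long RNA libraries of BMDM were analysed. The deposited signal is a read count that the authors divided by 1 DESeq2 median-ratio size factor per library, after STAR mapping to GRCm38 and FeatureCounts on the sense strand. The annotation release used for counting is not given in the sources used here. Whole reads were recovered from the smallest step of each column (100% of the values came within 0.001 of a whole read) and served for depth, edgeR 4.0.16 and DESeq2 1.42.0. The lowest median of a gene over the libraries was 11 reads, so weaker genes were not analysed here. Gene types, exons and sequences came from GENCODE M21, which holds 14421 of the identifiers and lacks 35.

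Log2 of the normalized count plus 1 was tested with limma 3.58.1 in R 4.3.3 (lmFit, eBayes with trend), two-sided, with Benjamini-Hochberg adjustment over all genes with a mean of at least 10, separately for the glucose and the exosome experiment. Of the 114 members 113 passed that filter in each. The ratio to the host was fitted over all genes nested in a listed protein-coding gene on their strand. Fold changes are on the log2(value + 1) scale and understate those of weak genes.

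Members and gene lists were chosen with earlier results of these data known. Named genes were called members with their hosts, the 5 largest changes in each direction among members with a mean of 50 or more whose groups did not overlap, the 10 most abundant per kilobase, members of hosts with at least 2, and the lists. Genes outside this rule include Gm19967, named for its call under the block, and Gm43920 and Gm48086, chosen after their values were seen. Gm14040, Gm17491 and Gm20705 were named for a level above their host. Gm29170 was named for its overlap with another exon, and Slc5a3 for its place beside Gm16310. In the exosome experiment the labels give libraries of 1 replicate number the same date, so the number pairs libraries by date. The labels do not say what was done on that date. After removal of group means, same-date libraries had correlations over all genes tested between −0.02 and 0.05. The summed level of the members without Peg13 and Gm15513 was lowest in replicate 1 and highest in replicate 3 in both PBS and BMDM–NG-exo. This order did not hold in BMDM–HG-exo. The main fits had no term for the date. Copies were looked for in 30 pairs within groups, and the chi-square per degree of freedom was 5.23 to 42.3. Alternatives were a pseudocount of 5, no filter or a mean of 50, TMM factors, the block, edgeR, DESeq2, no fold limit, the longest host, members free of other exons, and each library left out. The fits were also run on simulated data with independent genes and no date effect, and no result here rests on that run. Tables were made with pandas 2.3.3, numpy 2.4.6 and Python 3.11.15, and figures with matplotlib 3.10.9. The result for 1 host gene is not reported here.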

Additional observations from a re-analysis of the deposited data

Results flagged for a closer look

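In 6 of 132 groups of libraries examined for genes of the text, 1 library stood farther from its nearest neighbour than Dixon's 95% limit allows for the range of its group. Chance flags about 5% of groups, so 6 is near the number that chance gives. The summed normalized count of the 7 members in Cdk14 was 222 in PBS replicate 1, against 369 to 389 in the other PBS libraries, and the lower PBS value enters the comparisons of Cdk14 members above. Gm29055 had 27.9 in BMDM–NG-exo replicate 3 (49.2 to 53.3 in the others). Gm19967 had 48.7 in PBS replicate 2 (27.8 to 30.5 in the others) and, among the 8 combined controls, 95.5 in BMDM–NG-exo replicate 3 (27.8 to 48.7 in the others). The host gene Mrps6 had 439 in BMDM–HG-exo replicate 3 (494 to 505 in the others) and 529.9 in high glucose replicate 1 (632 to 653 in the others). What set these libraries apart was not tested.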

How the results depend on the processing

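The count of members called stayed at 0 for the ratio to the host in both experiments and for BMDM–HG-exo against BMDM–NG-exo under each alternative run. For high against normal glucose it was 0, and 1 with DESeq2 (Gm43920). It was 1 for BMDM–HG-exo against PBS and 2 with DESeq2. With the replicate block it was 2 for BMDM–HG-exo against PBS and 1 for BMDM–NG-exo against PBS, and the block changed no other count of members called. The median log2 fold change for high against normal glucose moved from −0.15 to −0.064 with a filter at a mean of 50 (weak members left out) and to −0.055 with the replicate block, where only 2 numbers are shared and same-numbered libraries had a mean correlation of 0.0084. Leaving out 1 library gave 0 to 2 members for glucose (2 without normal glucose 1, Gm43920 and Gm48086), 0 to 1 for BMDM–HG-exo against the controls (Gm3513, without BMDM–NG-exo 3), 0 to 0 for BMDM–HG-exo against BMDM–NG-exo, 0 to 2 against PBS and 0 to 1 for BMDM–NG-exo against PBS (Gm16310). For the ratios it gave 0 to 0, and the medians ran from −0.16 to −0.09 for glucose and from 0.12 to 0.24 for BMDM–HG-exo. No value changed direction. Over all genes, the block gave 788 calls for glucose against 1914. For BMDM–HG-exo against the controls DESeq2 gave 127 and a pseudocount of 5 gave 47, against 29, and leaving out 1 library gave 1 (without BMDM–HG-exo 1) to 204 (without BMDM–NG-exo 3). For BMDM–HG-exo against BMDM–NG-exo the main count of 2 became 22 with the block and with DESeq2, 5 with a pseudocount of 5, with TMM factors and with a filter at a mean of 50, and 1 with edgeR, and leaving out 1 library gave 1 to 7 (without BMDM–NG-exo 1). The causes were not tested. Members' low counts limit what could be detected: their median standard error was 0.30 to 0.36 on the log2 scale over the 5 comparisons.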
